A study of Rattus norvegicus with 3 samples.

Results

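The carriers that take filtered glucose, phosphate and bicarbonate back from the proximal tubule of the kidney were examined in rats given gamma-aminobutyric acid (GABA). The 10 genes are Slc5a1, Slc5a2, Slc2a1 and Slc2a2 for glucose, Slc34a1, Slc34a3, Slc20a1 and Slc20a2 for phosphate, and Slc9a3 and Slc4a4 for protons and bicarbonate. They were chosen by name, and their probes were found through the RefSeq accession that the array gives for each probe. They are 10 of the 15437 named genes with a probe on the array, and 14 of its 30367 probes.

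Kidney RNA of male Sprague-Dawley rats, 5 weeks old at purchase, was compared on 3 Agilent arrays with 2 colours. The G200 group drank water with 200 ppm GABA for 3 weeks, and the control group drank water without it. Both groups ate the same standard diet, and the labels place the tissue in the non-tumor region of the kidney. On each array the control carried the green dye Cy3 and G200 the red dye Cy5, and the dyes were exchanged on 0 arrays, so dye and treatment cannot be told apart. A log2 ratio above 0 means more signal in G200. The 3 green channels differed from each other by less than replicate spots within an array did (0.414 to 0.649 times), while the red channels differed by more (2.46 to 4.1 times). The control was therefore counted as 1 sample and G200 as 3, and the spread between control rats is in no test. This departs from the labels, which give 3 rats per group and mention no pooling of control RNA. The study's own methods give another number of rats, so n = 3 below means 3 arrays, and how many rats each stands for is not known. The array ratios correlated across 14179 genes with r = 0.778 between replicates 1 and 2, 0.827 between 1 and 3, and 0.904 between 2 and 3, which describes genes and not independent samples.

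In the proximal tubule, glucose enters the cell from the urine with sodium and leaves towards the blood through facilitative carriers of the GLUT family. Phosphate enters with sodium through carriers of the brush border, and protons are pumped out in exchange for sodium while bicarbonate leaves on the blood side. The sodium pump of the basolateral membrane keeps cell sodium low and so drives the steps by which sodium enters. The early part of the tubule reclaims most of the filtered glucose through SGLT2, the product of Slc5a2.

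RefSeq promoters, which run from 250 bases before to 50 bases after the start of a gene, were available for 8 of the 10 carriers, and for neither Slc20a1 nor Slc20a2. That of Slc2a2 is shown because it had the largest change past the test, and that of Slc5a2 because its arrays differed most. No bases are marked.
Slc2a2 promoter, rat assembly GRCr8, chr2:113540120-113540419, plus strand: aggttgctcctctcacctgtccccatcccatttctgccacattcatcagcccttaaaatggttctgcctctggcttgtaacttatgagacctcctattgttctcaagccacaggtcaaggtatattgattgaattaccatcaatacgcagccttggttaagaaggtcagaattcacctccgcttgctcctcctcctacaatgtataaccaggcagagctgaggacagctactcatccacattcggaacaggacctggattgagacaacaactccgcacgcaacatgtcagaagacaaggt
Slc5a2 promoter, rat assembly GRCr8, chr1:192277371-192277670, plus strand: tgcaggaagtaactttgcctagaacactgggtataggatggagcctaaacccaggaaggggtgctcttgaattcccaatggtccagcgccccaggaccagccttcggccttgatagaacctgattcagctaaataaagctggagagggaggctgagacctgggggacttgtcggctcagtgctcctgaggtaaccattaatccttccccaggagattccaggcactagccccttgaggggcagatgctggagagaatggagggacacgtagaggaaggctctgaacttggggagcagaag
G and C made up 47.7% of the Slc2a2 promoter and 54.7% of the Slc5a2 promoter, beside a median of 51.7% over all 33469 promoters in the table.

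Of the 10 carriers, 7 had a probe that was well above background in green, or in red, on each of the 3 arrays and could be tested. Slc2a2 and Slc20a2 passed the threshold, an adjusted p under 0.05 from limma over 14181 genes, and both fell in G200. These 2 calls stand beside 37.5% of all tested genes past the same threshold, 26.0% lower, so their number does not set the carriers apart. By a 2-fold change with an unadjusted p under 0.05, the criterion of the methods, Slc2a2 was the 1 carrier called, as were 4.03% of all genes lower and 0.0282% higher. Slc5a2, Slc2a1, Slc34a1, Slc20a1 and Slc4a4 did not pass either rule. Slc5a1, Slc34a3 and Slc9a3 were too dim in the control on every array.

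These calls depended on how the dyes were scaled to each other. When each array was centred on its median rather than scaled by loess, the median log2 ratio of all genes went from -0.05 to 0.27, and it reached 0.62 when the dyes were not scaled at all. Among genes past the threshold, 30.6% were higher in G200 with loess, 79.6% with median centring and 96.3% with no normalization. With these scalings 3 and 6 carriers were called, all higher. The number of genes called also turned on single arrays, since 5321 passed in all, 3538 without replicate 1 and 1575 without replicate 3. Without replicate 3, 10.9% of the genes called were higher in G200.

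**Figure D1:**
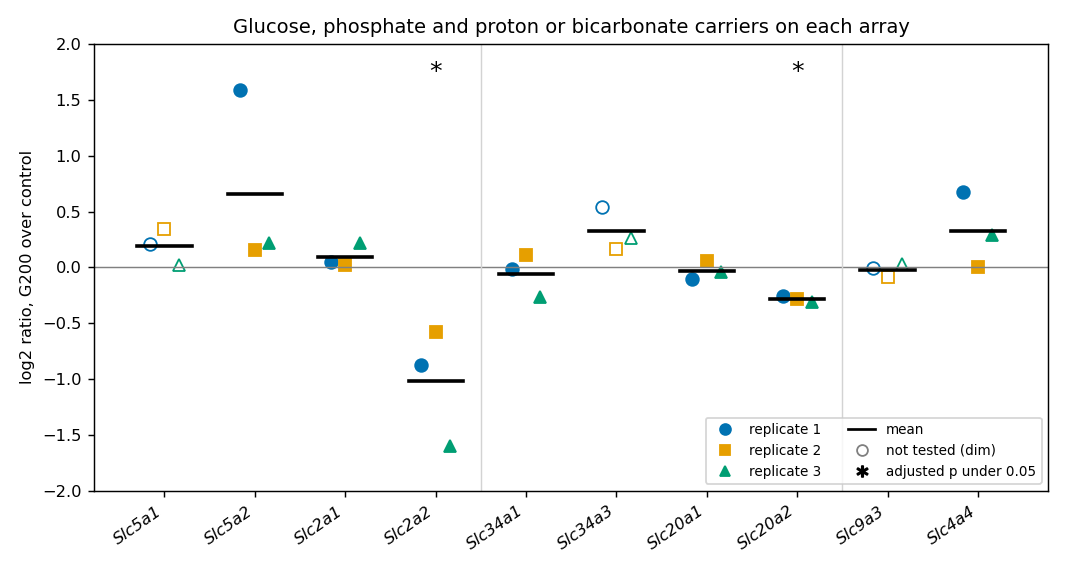
Log2 ratio of G200 over control for each carrier on each of the 3 arrays, with the mean as a bar; open marks are carriers too dim to test, and stars mark an adjusted p under 0.05. Slc2a2 lies below 0 on every array with loess, from -1.60 to -0.58, and Slc5a2 stands at 1.59 on replicate 1 alone; Slc20a2, below 0 here, lies above 0 with median centring or no normalization.

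The glucose carriers held both the largest fall and the widest spread. Slc2a2 encodes GLUT2, through which glucose leaves the early proximal tubule cell, and which liver, pancreatic islets and small intestine also make. Its log2 ratio was -0.87, -0.58 and -1.60 on replicates 1, 2 and 3. All 3 arrays put G200 lower, by unequal amounts. The mean was -1.02 ± 0.52 (SD, n = 3), a level 2.02-fold lower in G200 (95% interval -1.46 to -0.57; limma, adjusted p = 0.00912). The interval and p rest on limma's standard error of 0.184, which draws the variance towards that of other genes. The interval is therefore narrower than this SD alone would give. Both channels of its probe stood well above background on every array.

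The channels of Slc2a2 add detail to this fall. After normalization its control log2 intensity was 8.71, 9.34 and 9.35, and its G200 log2 intensity 7.84, 8.76 and 7.75, on replicates 1, 2 and 3. The control value on replicate 1 was the lowest of the 3, and it lay below the G200 value on replicate 2. The channels thus overlap across arrays, and the fall is a difference within each array. The SD of the ratio was larger than that of 98.1% of the genes tested.

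The sign of Slc2a2 was negative under all 15 alternatives, but the call was not always kept. Its log2 ratio was -0.44 with median centring (adjusted p = 0.127) and -0.083 with no normalization (adjusted p = 0.777), where the adjusted p over the alternatives ranged from 0.00502 to 0.777. Relative to the median of all genes it was -0.97 with loess and -0.70 with either of these scalings. Without replicate 3 the ratio was -0.73 and without replicate 2 it was -1.23, both still past the threshold.

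Liver transcripts moved with Slc2a2. Of 15 liver markers, 13 were tested and all 13 were lower in G200 past the threshold, with a median log2 ratio of -2.72 (-1.60, -2.89 and -4.15 on replicates 1, 2 and 3). Their summed normalized intensity was 154400, 183600 and 194000 in the control and 45680, 18890 and 7437 in G200. The brightest of them in the control was Ttr, the gene of transthyretin. The 13 tested markers, Alb and Cyp2c11 among them, were well above background on 3 arrays in both channels. The hepatocyte genes Cps1 and Tat were well above background on no array in either channel. Both the liver markers and Slc2a2 were lowest on replicate 3, but replicate 2 was the highest for Slc2a2 and lay between the others for the liver markers. The part of the liver transcripts in the fall of Slc2a2 was not tested. Fewer cells of a type and less RNA per cell cannot be told apart in such tissue RNA.

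Markers of the proximal tubule itself did not fall as a list with Slc2a2. Of 14 markers, 12 were tested, 8 were higher and 4 lower, of which 5 rose and 1 fell past the threshold (all genes, 37.5% called and 26.0% lower), with a median log2 ratio of 0.24 (0.29, 0.15 and 0.17 on replicates 1, 2 and 3). This median stayed positive with median centring (0.95) and no normalization (1.30). Their summed intensity was 110700, 99960 and 106800 in the control and 106500, 109400 and 106600 in G200. The brightest was Miox, which encodes myo-inositol oxygenase and was the 1 marker that fell (-0.25 ± 0.097, SD, n = 3; limma, adjusted p = 0.0361). The labelled tissue thus carried proximal tubule transcripts in both channels, although Slc6a19 and Slc7a7 were well above background in the control on no array. Small intestine, the other main site of SGLT1 and GLUT2, was checked with 6 markers, of which Sis and Muc2 had no matched probe. Of its other markers, Fabp2 and Cdx2 were well above background on no array in either channel. Vil1 was on 3 in both, and Lct on 3 in the control and 2 in G200.

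**Figure D2:**
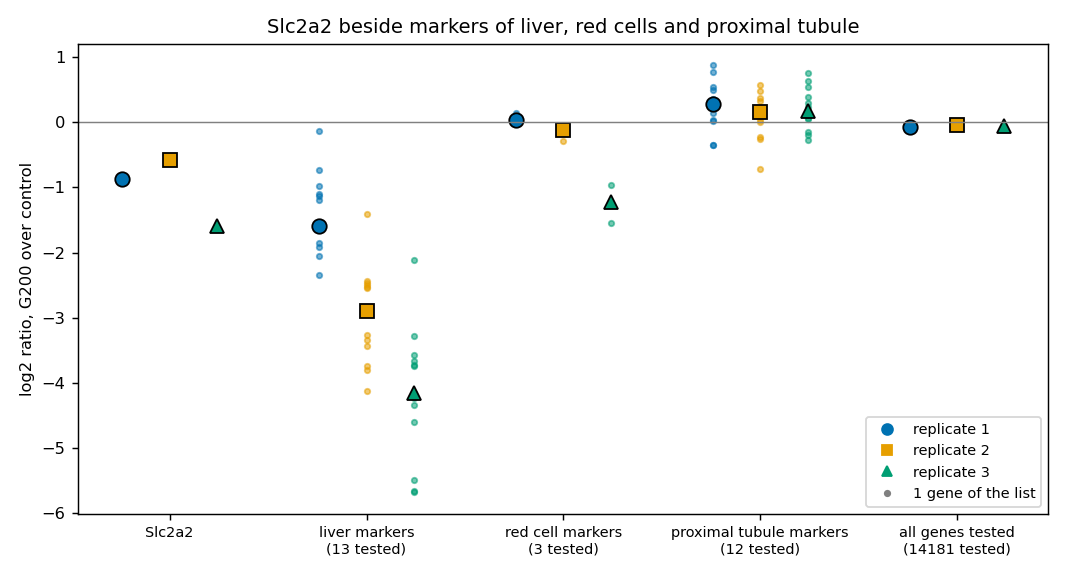
Log2 ratio of G200 over control on each array for Slc2a2, and for the tested markers of liver, red cells and proximal tubule (small points, 1 per gene; large marks, the median of the list), with the median of all genes tested on the right. The liver medians run from -4.15 to -1.60 and Slc2a2 from -1.60 to -0.58, while the proximal tubule medians lie between 0.15 and 0.29.

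The 3 named genes nearest to Slc2a2 over the 3 arrays, by Euclidean distance between log2 ratios, were Sult1a1 (0.353), Akr1c19 (0.359) and Acsm1 (0.367). Sult1a1 encodes a phenol sulfotransferase and Acsm1 a medium-chain acyl-CoA synthetase. They were picked by these same ratios, so a profile like that of Slc2a2 follows from the choice and is no separate result. On replicates 1 and 2 Sult1a1 was at -0.99 and -0.79, Akr1c19 at -0.99 and -0.65, and Acsm1 at -1.01 and -0.91. All 3 were lowest on replicate 3. No carrier rose past the threshold, so no neighbours of a rising carrier are given.

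Slc5a2 encodes SGLT2, the sodium-coupled carrier of the early tubule and the target of the gliflozin drugs. Its log2 ratio was 1.59, 0.16 and 0.22 on replicates 1, 2 and 3. One array stands far from the others, and the mean of 0.66 ± 0.81 (SD, n = 3) did not pass the threshold (95% interval -0.010 to 1.32; limma, adjusted p = 0.106). Its net signal is the spot minus its local background, before the dyes were scaled. It was 30, 27 and 28 intensity units in the control and 410.5, 27 and 46 in G200. The control was thus near background and even across the arrays, and the distance lies in the G200 channel of replicate 1.

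Replicate 1 was compared with the other arrays gene by gene to place this value. Its ratio for Slc5a2 exceeded the mean of the other arrays by 1.40, and 78 of 14179 genes (0.55%) had a larger excess, against a median excess of -0.018 over all genes. The SD of Slc5a2 was larger than that of 99.4% of genes. Without replicate 1 the mean was 0.19 (adjusted p = 0.169), and under all alternatives it ranged from 0.19 to 1.52, with an adjusted p from 0.0311 to 0.654. The size of the Slc5a2 difference thus rests on replicate 1. On replicate 2 the net signals were equal before the dyes were scaled, and the log2 ratio was 0.16 after loess. Some markers of other nephron segments were also highest on that array. The podocyte markers had medians of 0.72, 0.058 and 0.24 on replicates 1, 2 and 3, and Slc12a3, the thiazide-sensitive carrier of the distal convoluted tubule, had ratios of 1.23, -0.0036 and -0.20. The medians of thick ascending limb, principal cell and intercalated cell markers were highest there too (0.48, 0.28 and 0.46). Some single markers were not highest on that array, among them Kcnj1 (0.11, -0.031 and 0.19) and Aqp2 (-0.36, -0.035 and -0.50). The part of the makeup of that sample in the Slc5a2 value was not tested.

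Slc2a1 encodes GLUT1, which serves the blood side of later tubule segments and is found in most tissues. It was measured with 10 spots per array, and its log2 ratio was 0.052, 0.022 and 0.22 on replicates 1, 2 and 3. The spots of an array had SDs of 0.064, 0.095 and 0.088, which is technical spread only. The mean of 0.10 ± 0.11 (SD, n = 3) did not pass the threshold (95% interval -0.078 to 0.27; limma, adjusted p = 0.321), though with median centring it was 0.74 (adjusted p = 0.0199) and with no normalization 1.1 (adjusted p = 0.00716), where the adjusted p over the alternatives ranged up to 0.823. Relative to the median of all genes it was 0.15 with loess and 0.48 with either of these scalings.

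Slc5a1 encodes SGLT1, the carrier of the later proximal tubule and the small intestine. Its probe was well above background in the control on 0 arrays and in G200 on 1. The net signal was 16, 15 and 18 units in the control and 16, 19.5 and 8 in G200. No fold is given, because G200 had the lower net signal on replicate 3. A signal this low supports no call, and with the filter dropped its adjusted p was 0.122 over 26785 genes.

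**Figure D3:**
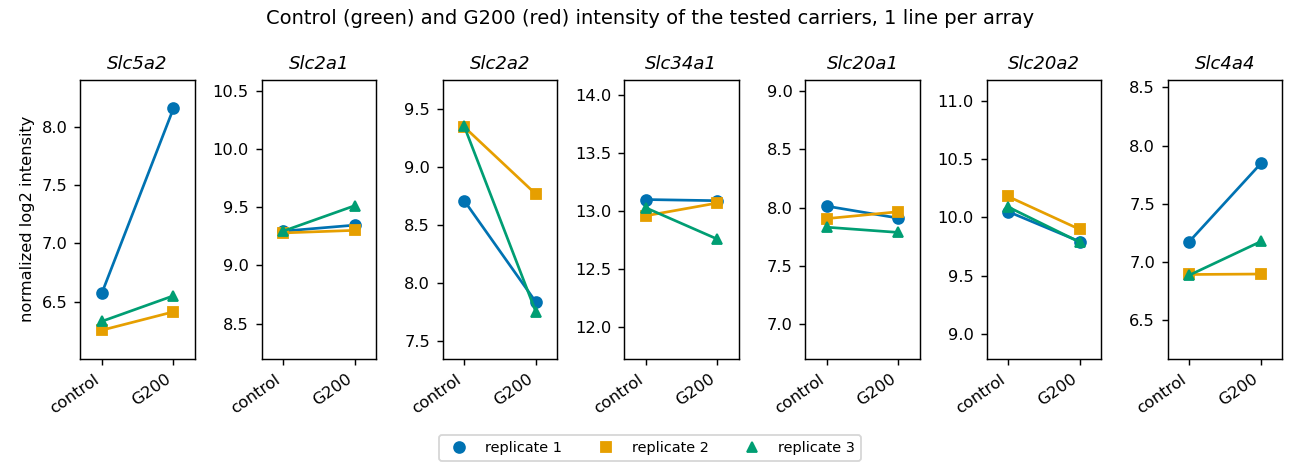
Normalized log2 intensity of the 7 tested carriers in the control and in G200, with 1 line per array and the same span of the vertical axis in each panel. The lines of Slc2a2 and Slc20a2 fall on every array with loess, though Slc20a2 turns with median centring or no normalization, and Slc5a2 climbs steeply from 6.57 to 8.16 on replicate 1 alone.

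Among the phosphate carriers, the brush border carrier NaPi-IIa, encoded by Slc34a1, showed no call. Its net signal was 5556, 5690 and 5497 units in the control and 17730, 9628 and 10260 in G200, before the dyes were scaled. The log2 ratio was -0.012, 0.11 and -0.27 on replicates 1, 2 and 3. The signs differed between the arrays, and the mean of -0.06 ± 0.19 (SD, n = 3) lay near 0 (95% interval -0.28 to 0.16; limma, adjusted p = 0.635). The interval reaches no change of 2-fold in either direction under loess. With median centring the ratio turned to 0.75 (adjusted p = 0.0199) and with no normalization to 1.11 (adjusted p = 0.0071), where the adjusted p over the alternatives ranged up to 0.947. Relative to the median of all genes it was 0.49 under both of these scalings and -0.0079 under loess, so its place among genes moved with the dye scaling.

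Slc34a3 encodes NaPi-IIc, a second carrier of the brush border, whose loss causes renal phosphate wasting. Its log2 ratio, 0.54, 0.16 and 0.26 on replicates 1, 2 and 3, was set against a control near background, so the arrays are not ranked by it. The probe was well above background in the control on 0 arrays and in G200 on 2, with a net signal of 13.5, 14.5 and 16 units against 40.5, 8 and 19.5. On replicate 2 the net signal in G200 was lower than in the control, so the direction there depends on how the background is treated, and no fold is given. With the filter dropped it passed the threshold as higher in G200 (limma, adjusted p = 0.0331 over 26785 genes). That call rests on a control signal not well above background.

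The deposited ratio shows this dependence. The Feature Extraction log2 ratio of Slc34a3 was 3.56, 1.81 and 2.96, and that of Slc5a1 was 2.42, 1.90 and 2.31. The ratios made here from the same spots of Slc5a1 were 0.21, 0.35 and 0.025, so the size of this ratio depended on the processing. For Slc5a2 the deposited ratio was 3.44, 0.33 and 0.80, again highest on replicate 1. The sign was not shared by every way of treating the background, since the net signal was lower in G200 on replicate 2 for Slc34a3 and on replicate 3 for Slc5a1.

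Slc20a1 and Slc20a2 encode PiT1 and PiT2, sodium-phosphate carriers found in many tissues, of which PiT2 also sits in the brush border. The log2 ratio of Slc20a1 was -0.10, 0.059 and -0.045, averaging -0.03 ± 0.08 (SD, n = 3; 95% interval -0.20 to 0.14; limma, adjusted p = 0.755). The arrays lay on both sides of 0, and the ratio turned to 0.47 with median centring and to 0.82 with no normalization, past the threshold as higher in both (adjusted p = 0.0314 and 0.0119, ranging over the alternatives up to 0.964). The log2 ratio of Slc20a2 was -0.26, -0.28 and -0.31, which makes it the most even of the tested carriers. Its SD of 0.023 was larger than that of 2.78% of genes. The mean of -0.28 was 1.22-fold lower in G200 (95% interval -0.44 to -0.13; limma, adjusted p = 0.0176).

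The fall of Slc20a2 holds under loess and turned to 0.40 with median centring (adjusted p = 0.0802) and to 0.76 with no normalization, where it passed the threshold as higher (adjusted p = 0.022), 0.14 above the median of all genes in both cases. It missed the threshold without replicate 3 (-0.27; adjusted p = 0.134), with normexp offset 0 (-0.31; adjusted p = 0.0595) and with the deposited ratio (-0.19; adjusted p = 0.185), while the adjusted p over the alternatives ranged from 0.0135 to 0.274. The gene has 3 probes. The other 2 were well above background on no array in either channel, so the call rests on 1 probe.

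Slc4a4 encodes NBCe1, the sodium bicarbonate cotransporter of the blood side. Its log2 ratio was 0.67, 0.0049 and 0.29 on replicates 1, 2 and 3. Replicate 1 was again highest, and replicate 2 was level with the control. The mean of 0.32 ± 0.34 (SD, n = 3) had a 95% interval of 0.014 to 0.63 and an adjusted p of 0.0916 from limma, short of the threshold. A dimmer probe of the gene gave 0.45, -0.16 and 0.14. Its control was not well above background on replicate 1, nor its G200 channel on replicate 2, so its order of arrays is not read. The excess of replicate 1 over the mean of the other arrays was 0.53, and 301 genes (2.12%) had a larger one.

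Leaving out an array moved Slc4a4 across the threshold. Without replicate 2 the mean was 0.48 (adjusted p = 0.0379), and without replicate 1 it was 0.15 (adjusted p = 0.332). Its sign was positive under all 15 alternatives, with an adjusted p from 0.0164 to 0.708. Relative to the median of all genes the ratio was 0.37 with loess and 0.40 with median centring or no normalization, while the ratio itself was 0.67 with median centring and 1.02 with no normalization, where it passed the threshold (adjusted p = 0.0164).

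Slc9a3 encodes NHE3, the sodium-proton exchanger of the brush border and the main route of proton secretion in this segment. It could not be measured on these arrays. Of its 2 probes, 1 was well above background in G200 on 1 array, and neither was in the control on any. The brighter probe gave -0.0070, -0.083 and 0.032 and the other -0.093, 0.091 and 0.076, values of mixed sign near 0 that give no fold. Signals at this level would also hide a change, so nothing is known here of NHE3 mRNA.

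**Figure D4:**
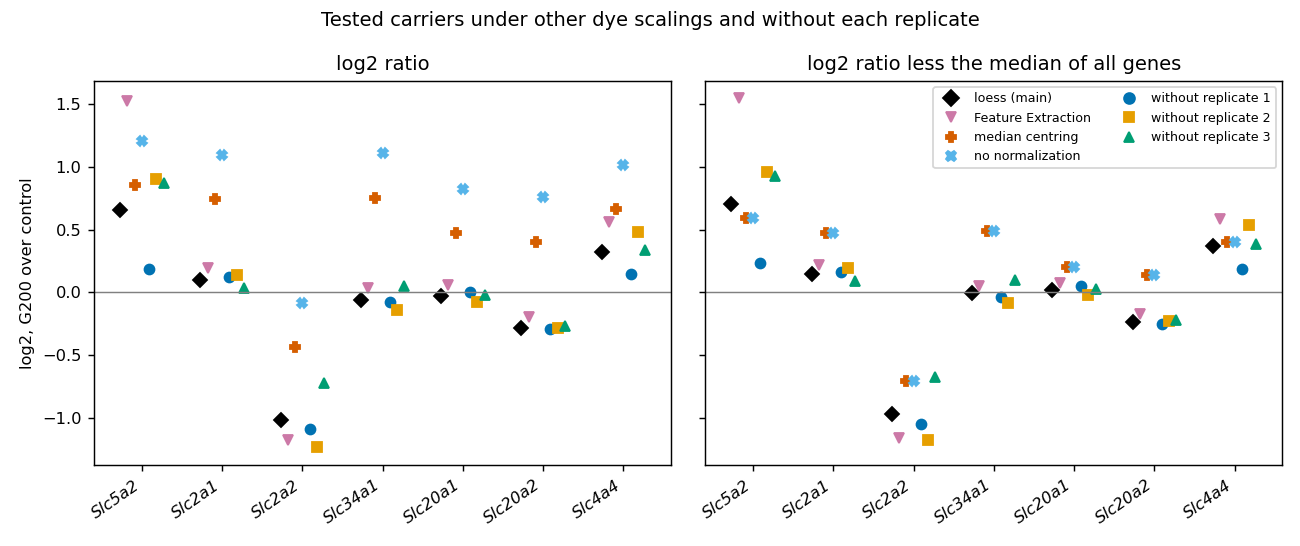
Log2 ratio of the 7 tested carriers under loess, 3 other ways of scaling the dyes and without each replicate, on the left as measured and on the right less the median of all genes under the same setting. Slc2a2 is below 0 in both panels at every setting shown, whereas Slc20a2 and Slc34a1 lie above 0 with median centring and no normalization; Slc5a2 drops to 0.19 without replicate 1.

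The genes that work with these carriers were read from lists of partners, of which 52 genes were tested. Some genes of these lists were left out of names and counts. Past the threshold, 8 were higher and 14 lower in G200, beside 1630 higher and 3691 lower of all 14181 genes, and against 21 higher and 3 lower with median centring and 29 higher and 0 lower with no normalization. The counts of the lists below stand beside the same 37.5% of all genes called, 26.0% lower, and were not tested against them. Without replicate 3 the counts were 1 higher and 10 lower, and of the rises named below only Atp1b1 kept its call, although the ratio of Slc5a6 was still 0.34, of Pth1r 0.36 and of Pdzk1ip1 0.44 (adjusted p = 0.0899, 0.0842 and 0.0514, ranging over the alternatives up to 0.335, 0.355 and 0.267). Among the falls, Enpp1 (adjusted p = 0.0516) and Nherf1 (adjusted p = 0.0547) lost their call there too. Every rise named below was larger, and past the threshold, with median centring and with no normalization, where Pdzk1ip1 was at 1.27 and 1.63 and Pth1r at 0.65 and 1.01. These scalings also raised the median of all genes, to 0.27 and 0.62. Relative to that median Pdzk1ip1 was 0.56 with loess and 1.005 with either scaling. Pth1r was 0.43 and 0.39, the only named rise that was not larger by this measure. Slc5a6 is the rise with the least spread.

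Beside the glucose carriers, 12 of 20 partners were tested, 2 rose and 3 fell, with a median log2 ratio of 0.14. This median was 0.48 with median centring and 0.83 with no normalization. Pdzk1ip1 encodes MAP17, the small membrane protein that SGLT2 needs for its activity. It was higher on every array (0.45, 0.43 and 0.65), averaging 0.51 ± 0.12 (SD, n = 3; limma, adjusted p = 0.00466). Slc5a6, a sodium-coupled vitamin carrier, rose by 0.34. Among the facilitative carriers Slc2a12 was at -0.68 and Slc2a6 at -0.51, and the inositol carrier Slc5a3 at -0.37. Slc2a12 lost its call with median centring (-0.15, limma, adjusted p = 0.378) and turned positive with no normalization. Slc5a3 turned positive with both, and passed the threshold as higher with no normalization (0.67, limma, adjusted p = 0.0335). With no normalization Slc2a6 was at -0.042 (adjusted p = 0.861), and Slc5a3 kept its call and sign in 7 of the 15 alternatives. Relative to the median of all genes Slc2a12 was -0.63 with loess and -0.42 with either of these scalings. By the same measure Slc2a6 was -0.46 and -0.66, and Slc5a3 -0.32 and 0.05. The partner of SGLT2 thus passed the threshold where Slc5a2 itself did not, a difference between the 2 genes that was not tested.

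Beside the phosphate carriers, 17 of 24 partners were tested, 1 rose and 3 fell, with a median of -0.022 that turned to 0.14 with median centring and 0.49 with no normalization. Pth1r, the receptor through which parathyroid hormone withdraws NaPi-IIa from the brush border, was at 0.43, 0.29 and 0.41, averaging 0.38 ± 0.073 (SD, n = 3; limma, adjusted p = 0.0087). The scaffold gene Nherf1, whose protein anchors NaPi-IIa and binds NHE3, was at -0.57, -0.37 and -0.28, and its mean of -0.41 turned to 0.11 with median centring and 0.46 with no normalization. Ankh, which governs pyrophosphate outside the cell, had a mean of -0.89 ± 0.16 (SD, n = 3; limma, adjusted p = 0.00129), which was -0.52 with median centring and -0.17 with no normalization, where its call was lost (adjusted p = 0.467). Relative to the median of all genes Ankh was -0.84 with loess and -0.79 with either of these scalings. Enpp1, which makes pyrophosphate, was at -0.49 and turned to 0.068 with median centring and 0.42 with no normalization. Relative to the median of all genes Enpp1 was -0.44 with loess and -0.20 with either scaling, and Nherf1 -0.36 and -0.16.

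Beside the proton and bicarbonate carriers, 21 of 29 partners were tested, 3 rose and 8 fell, with a median of -0.14 that turned to 0.19 with median centring and 0.54 with no normalization. Car4, which sits on both faces of the proximal tubule cell, was at 0.50, 0.10 and 0.82, averaging 0.48 ± 0.36 (SD, n = 3; limma, adjusted p = 0.0363). Car14 was at -0.84, -0.77 and -0.91, averaging -0.84 ± 0.067 (SD, n = 3; limma, adjusted p = 0.000983), and was at -0.62 with median centring and -0.26 with no normalization, where its call was lost (adjusted p = 0.28). Relative to the median of all genes Car14 was -0.79 with loess and -0.88 with either of these scalings. Car4 spread widely and lost its call without replicate 1 (adjusted p = 0.0588) and without replicate 3 (adjusted p = 0.187), with an adjusted p over the alternatives from 0.00642 to 0.563.

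Chp1, which encodes a cofactor of sodium-proton exchangers, was at 0.38 and Glud1, an enzyme of ammonia production, at 0.22 (limma, adjusted p = 0.0468). Glud1 lost its call in 9 of the 15 alternatives, among them leaving out replicate 1, 2 or 3 (adjusted p = 0.117, 0.119 and 0.162). The anion exchanger genes Slc26a6, Slc4a1 and Slc4a3 had means of -0.70, -0.68 and -0.64, and all 3 lost their call with median centring (-0.17, -0.017 and -0.31; adjusted p = 0.357, 0.937 and 0.0698) and turned positive with no normalization. Relative to the median of all genes they were -0.65, -0.63 and -0.59 with loess. They were -0.44, -0.28 and -0.57 relative to it with either of these scalings. Slc4a1 is also a red cell gene, and the 3 tested red cell markers had a median of -0.39 (0.028, -0.12 and -1.23 on replicates 1, 2 and 3), with none past limma's adjusted threshold, and this median turned to 0.30 with median centring and 0.65 with no normalization. Slc4a1 itself was at -0.65, -0.51 and -0.89 on replicates 1, 2 and 3. The part of blood left in the tissue was not tested.

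Of the sodium pump, 2 genes are given, since some partner genes were left out. Atp1b1, the beta subunit, was at 0.69 ± 0.25 and the regulatory subunit Fxyd2 at 0.67 ± 0.26 (SD, n = 3), with limma's adjusted p at 0.00497 and 0.00597, and both were higher on every array. With no normalization both were at 1.86. Thick ascending limb, which is rich in this pump, had 5 markers tested and 3 higher past the threshold, with a median of 0.41, and its part in the pump values was not tested. Without replicate 3 Atp1b1 was at 0.78 (adjusted p = 0.0263) and Fxyd2 at 0.63 (adjusted p = 0.0565), the latter short of the threshold, with an adjusted p for Fxyd2 over the alternatives from 0.00366 to 0.34.

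**Figure D5:**
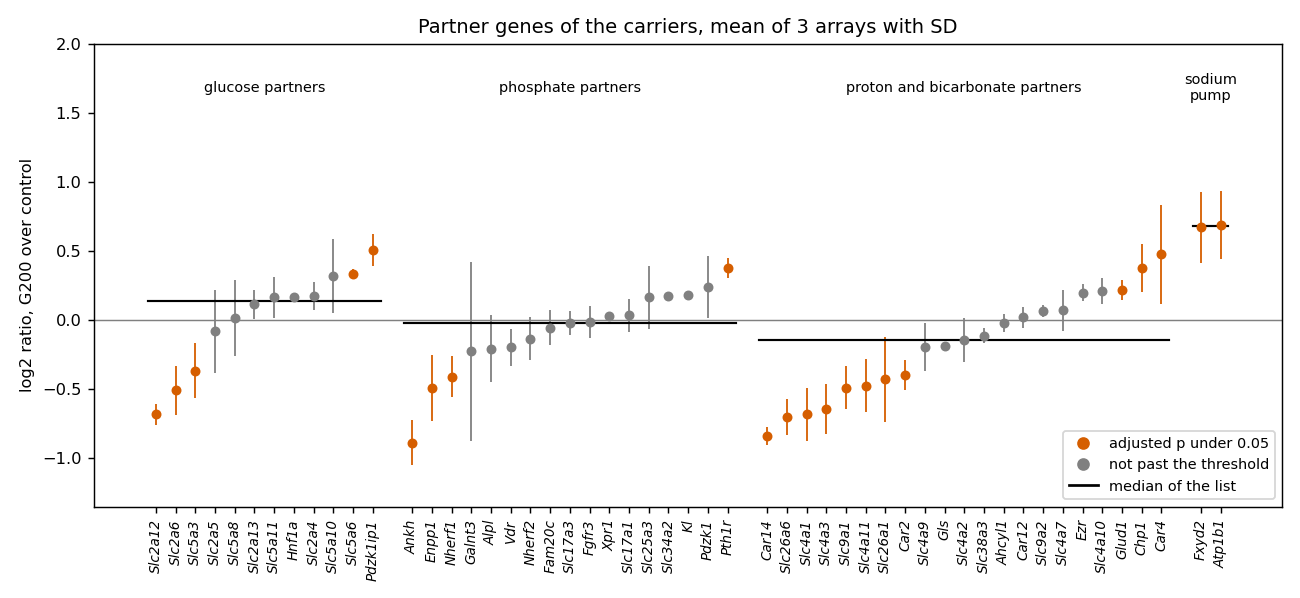
Mean log2 ratio of G200 over control with its SD over 3 arrays for each tested partner gene, ordered within its list, with the median of the list as a line. Orange marks are past an adjusted p under 0.05; with loess 8 of them lie above 0 and 14 below, against 21 and 3 with median centring, and the pump genes shown lie at 0.67 and 0.69.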

How the data were processed

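Per array the authors deposited a table made by Agilent Feature Extraction (version 11.5.1.1 in the file header, 9.3.2.1 in the labels). It holds the median intensity of each spot and its local background per dye, not yet corrected, and a deposited log10 ratio of Cy5 to Cy3, corrected and scaled by that program. All 3 arrays lie on 1 slide and 1 scan. Background was corrected from the deposited intensity with limma 3.58.1 in R 4.3.3 (normexp, offset 50), and the dyes were scaled by loess within each array. Control spots and outlier marks (635, 736 and 945 spots) were left out, spots of a probe were averaged, and 60.4% of probes were matched to a symbol in the RefSeq table of GRCr8. Probes were kept if well above background in green, or in red, on each array, and the brightest stood for its gene. Well above background were 59.8%, 62.7% and 62.3% of spots in green and 63%, 56.6% and 61% in red on replicates 1, 2 and 3, and the number of arrays limits the precision.

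A two-sided test in limma (lmFit, then eBayes) set each mean log2 ratio against 0, and p-values were adjusted by Benjamini-Hochberg across the 14181 genes. Channel levels were also scaled between arrays (Aquantile). The steps were run on simulated arrays with known changes in a small share of genes, as many higher as lower. That setting differs from these data, so it does not bear on how the calls depend on dye scaling. Alternatives changed background correction, dye scaling, filter, outlier spots, probe choice, variance model, test or replicates; 1 of them, the t-test on channels scaled between arrays, was chosen after seeing the data. All carriers are named. From each partner list, called genes with 1 sign on all arrays are named, at most the 4 largest rises and 4 largest falls, and from marker lists at most the 3 brightest. For the called carrier with the largest change in each direction, the 3 nearest named genes are given. Slc12a3 and undetected markers follow their lists. Some genes of the partner lists were left out of names, counts and figures after their values were seen, though not because of them. Carriers and lists were chosen with earlier results of these data known.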

Additional observations from a re-analysis of the deposited data

How the results depend on the processing

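All 15 alternatives were run; the slide as a block was not, because all arrays lie on 1 slide. Slc2a2 kept its sign in all of them and its call in 11, and Slc20a2 kept its call in 8. Of the other tested carriers, Slc5a2, Slc2a1 and Slc4a4 kept their sign in all 15.

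With no normalization between the dyes, 8315 genes and 6 carriers passed the threshold. Slc2a2 was at -0.083, short of the threshold, while Slc5a2 (1.21), Slc2a1 (1.1) and Slc4a4 (1.02) passed it. Slc34a1 (1.11), Slc20a1 (0.82), Slc20a2 (0.76), Slc5a3 (0.67), Nherf1 (0.46), Enpp1 (0.42), Slc4a1 (0.34), Slc2a12 (0.20), Slc26a6 (0.18) and Slc4a3 (0.047) turned positive. The median of all genes was 0.62 there, and Nherf1, Enpp1, Slc4a1, Slc2a12, Slc26a6 and Slc4a3 lay below it. With median centring Slc2a2 was at -0.44, short of the threshold, Slc2a1 passed at 0.74, and Slc34a1 (0.75), Slc20a1 (0.47), Slc20a2 (0.40), Slc5a3 (0.32), Nherf1 (0.11) and Enpp1 (0.068) turned positive. Of these, Nherf1 and Enpp1 lay below the median of all genes, which was 0.27 with median centring.

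With the Feature Extraction log ratio 1 carrier passed, Slc20a1 was at 0.056 and Slc20a2 at -0.19, short of the threshold. With normexp offset 0 also 1 carrier passed, and Slc20a2 (-0.31) did not. By the methods' t-test between channels, with the control counted as 3 samples, 2721 genes had an unadjusted p under 0.05, 478 of them with a 2-fold change, and 0 genes, 0 carriers and 0 partners passed after Benjamini-Hochberg adjustment, where limma called 2 carriers. Only Slc2a2 had an unadjusted p under 0.05, with a 2-fold change. With the channels also scaled between arrays, a choice made after seeing the data, 4208 genes had an unadjusted p under 0.05, 474 of them with a 2-fold change, and 345 genes, 0 carriers and 3 partners passed; only Slc20a2 had an unadjusted p under 0.05, without a 2-fold change. In both tests Slc2a2 (-1.02) and Slc20a2 (-0.28) were short of the threshold. The cause of these changes was not tested.

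Leaving out a replicate gave 1575 to 4977 genes, 1 to 3 carriers and 11 to 24 partners past the threshold, with Slc20a2 between -0.29 and -0.27 and Slc4a4 between 0.15 and 0.48. Signal over background limits Slc5a1, Slc34a3 and Slc9a3, which no alternative but the one without a filter tests. That alternative called Slc2a2 and Slc20a2 as lower and Slc34a3 as higher (limma, adjusted p = 0.0331 for Slc34a3).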

Other observations

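Markers of the other cells of the kidney were read beside the carriers, as values only. The median log2 ratio was 0.17 for 5 tested principal cell markers of the collecting duct, 0.19 for 4 intercalated cell markers and 0.36 for 5 podocyte markers. It was -0.054 for 5 endothelium markers, 0.054 for 5 stroma markers, 0.09 for 4 macrophage markers, -0.061 for 3 lymphocyte markers and 0.083 for 2 small intestine markers. In each of these lists limma called 0 or 1 genes past the adjusted threshold. All of these medians were positive with median centring in place of loess, but so was the median of all genes, at 0.27. The endothelium (0.14), lymphocyte (0.13) and small intestine (0.062) medians lay below it there, and the others above it.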
